A study of Homo sapiens with 3 samples.

Results

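The comparison described here sets 1 messenger RNA library of clone 114, a HEK293 cell clone with a partial knockout of KANK1 (genotype partial KANK1-KO, treatment genome editing), against 1 library of HEK293 cells of control genotype with treatment none. HEK293 cells, of embryonic kidney origin, are an established human line. The series also holds 1 library of a second partial KANK1-KO clone, clone 174, with the same genotype and treatment labels, and its values are given beside those of clone 114; both clones are set against the same control library. All 3 libraries came from cells kept in DMEM with fetal bovine serum. For the clones, a plasmid that expresses Cas9 and a guide placed just behind the first start codon of KANK1 was brought into the cells by lipofection, and the cells were then grown for 3 days. Each clone is a single clone, the edited alleles were not analysed here, and whether the control cells went through transfection or cloning is not given in the sources used here. Genes were compared where the mean of clone 114 and the control was at least 1 FPKM (fragments scaled by transcript length and sequencing depth), which held for 12511 of 26209 gene symbols. The change is log2 of (FPKM + 1) in clone 114 over (FPKM + 1) in the control, so it understates the change of low genes. A gene given at exactly 0 is only listed at 0, since such a value can be a failed estimate. With 1 library a group there is no replicate error and no test, and every value below describes these libraries.

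KANK proteins bind talin at integrin adhesion sites and recruit the cortical complex that captures microtubule ends, so they join adhesion, the actin cortex and the microtubule network. The series title asks about a reduced KANK1 dose and centrosome defects. Integrin adhesions sit on extracellular matrix and basement membrane, and the matrix, adhesion, cytoskeleton and centrosome genes are therefore described in turn before the other functions. HEK293 cells are known to express both kidney-lineage and neuronal genes, and both kinds are taken up below.

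KANK1, the edited gene, was at 3.63 FPKM in clone 114, 3.43 in clone 174 and 4.49 in the control. Its change in clone 114 was -0.25, and the transcript was present in all 3 libraries. The guide lies at the start of the coding sequence, so transcripts of edited alleles can still be counted in these values. KANK2, its most abundant relative in these cells, was at 14.8 FPKM in clone 114, 8.92 in clone 174 and 7.94 in the control. It was highest in clone 114, with a change of 0.83. KANK3 was at 0.967 FPKM in clone 114, 0.954 in clone 174 and 0.474 in the control, under the level compared. KANK4 was at 0.0679 FPKM in clone 114, 0.212 in clone 174 and 0 in the control. The depth, estimated from the step that 1 fragment adds to low values, was about 16790000 fragments in clone 114, 17010000 in clone 174 and 16350000 in the control. At these depths 1 FPKM on a transcript of 2 kb stood for about 30.2 fragments in clone 114, 30.6 in clone 174 and 29.4 in the control, so values of a few hundredths of an FPKM are about 1 fragment. Of 11 genes known from HEK293 cells, 9 reached the level compared and PAX2 and NEFM did not. Of these 9 genes, 8 were below the control in clone 114 and GAL was above it. The median was -0.29 in clone 114, with an interval over genes of -0.51 to -0.015, and -0.38 in clone 174. VIM, the gene of vimentin and one of the 8, was at 445 FPKM in clone 114, 201 in clone 174 and 523 in the control. Lists of 10 markers each for fibroblasts, endothelium, leukocytes, keratinocytes and hepatocytes summed to between 0.521 and 15.2 FPKM in clone 114 and between 0.203 and 21.7 FPKM in the control. COL1A2, PECAM1, PTPRC, KRT5 and APOB, from these lists, were listed at 0 in all 3 libraries. The members that reached the level compared were KRT10, SFN, CD68 and COL1A1. KRT10 was at 11.7 FPKM in clone 114 and 13.8 in the control. SFN was at 3.39 FPKM in clone 114 and 7.79 in the control, and CD68 at 7.33 in clone 114 and 6.41 in the control.

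Of the 12511 genes, 235 were at least 2-fold higher in clone 114 than in the control (1.88%) and 168 were at least 2-fold lower (1.34%). The values nearest that limit were 1.01 inside and 0.997 outside on the higher side, and -1.002 inside and -0.997 outside on the lower side. In clone 174, 171 of the same genes were higher by that limit and 215 lower. The median change over all compared genes was -0.0037 in clone 114 and -0.058 in clone 174. When each library's FPKM were brought to one sum, the median of all genes moved to 0.17 and the split became 386 higher and 115 lower, so that 77.0% of the 2-fold genes were higher, against 58.3% without that scaling. List and family medians below are to be read beside the median of all genes.

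**Figure D1:**
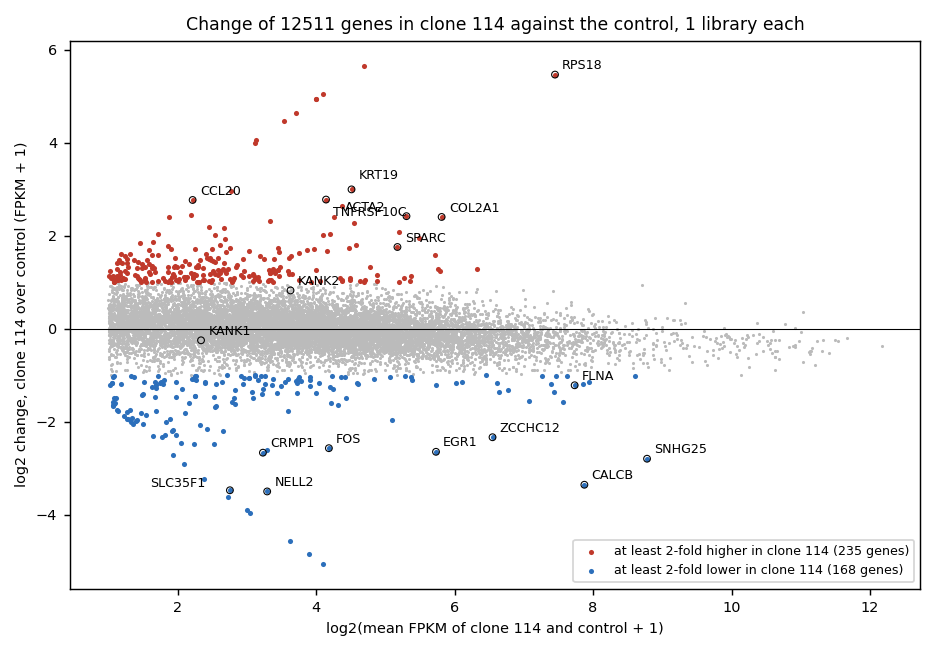
Each point is 1 of the 12511 genes; the horizontal axis is log2 of the mean FPKM of clone 114 and the control plus 1, and the vertical axis is the log2 change of clone 114 over the control. Red points (235) are at least 2-fold higher in clone 114, blue points (168) at least 2-fold lower, and named genes are circled; KANK1 lies at -0.25 and KANK2 at 0.83, inside the 2-fold limits.

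A gene can differ from the control in clone 114 because both clones do, so genes at least 2-fold from both the control and clone 174 were counted apart. There were 120 such genes on the higher side (0.959% of the 12511) and 67 on the lower side (0.536%). ACTA2, the smooth muscle actin gene, was at 65.7 FPKM in clone 114, 6.68 in clone 174 and 11.4 in the control. Clone 114 stood highest, with a change of 2.42 against the control. KRT19, a keratin of simple epithelia, was at 39.6 FPKM in clone 114, 1.29 in clone 174 and 4.07 in the control (change 3.00). TNFRSF10C, a decoy receptor for the death ligand TRAIL, was at 29.9 FPKM in clone 114, 3.77 in clone 174 and 3.49 in the control, highest in clone 114. DPP7, a lysosomal dipeptidase gene, was at 28.7 FPKM in clone 114, 6.77 in clone 174 and 6.24 in the control. The phospholipase B-like gene PLBD1 was at 8.02 FPKM in clone 114, 0 in clone 174 and 0.987 in the control.

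RBP4, the plasma retinol carrier, was at 9.16 FPKM in clone 114, 0.874 in clone 174 and 1.66 in the control. CRABP2, a cellular carrier of retinoic acid, was at 34.8 FPKM in clone 114, 14.8 in clone 174 and 4.74 in the control. PLIN2, a coat protein of lipid droplets, was at 11.4 FPKM in clone 114, 0.0324 in clone 174 and 2.901 in the control. All 3 were highest in clone 114, and PLIN2 was close to 0 in clone 174. SCN4B, a sodium channel subunit gene, was at 7.62 FPKM in clone 114, 1.39 in clone 174 and 1.62 in the control. DMC1, a meiotic recombinase gene, was at 6.77 FPKM in clone 114, 1.201 in clone 174 and 0.422 in the control. IFI30, a lysosomal thiol reductase, was at 69.9 FPKM in clone 114, 21.04 in clone 174 and 17.4 in the control. H1F0, the linker histone of non-dividing cells, was at 77.7 FPKM in clone 114, 8.27 in clone 174 and 25.01 in the control.

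Other genes among the 20 with the highest change were high in both clones. TP53I3, a p53 target gene, was at 31.1 FPKM in clone 114, 28.2 in clone 174 and 5.08 in the control. HSPB8, a small heat shock protein, was at 9.46 FPKM in clone 114, 25.7 in clone 174 and 1.32 in the control. TCN2, a carrier of vitamin B12, was at 4.28 FPKM in clone 114, 3.98 in clone 174 and 0.294 in the control. EPS8L2, an actin regulator, was at 37.7 FPKM in clone 114, 14.8 in clone 174 and 7.02 in the control. PTGR1, a prostaglandin reductase, was at 26.5 FPKM in clone 114, 11.1 in clone 174 and 5.74 in the control. In TP53I3 and TCN2 the clones lay close to each other, HSPB8 was highest in clone 174, and EPS8L2 and PTGR1 were highest in clone 114.

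On the lower side, SLC35F1, a putative transporter gene of the brain, was at 0.116 FPKM in clone 114, 9.88 in clone 174 and 11.4 in the control. Its values in clone 174 and the control were alike, and clone 114 was lower by 3.47 on the log2 scale; the change was -1.68 with a pseudocount of 5 FPKM and -5.74 with 0.1 FPKM, so its size depends on that choice. PLXDC2, a plexin-domain gene, was at 0.0248 FPKM in clone 114, 2.898 in clone 174 and 2.96 in the control. CTNND2, a delta-catenin gene of neurons, was at 0.0961 FPKM in clone 114, 4.9998 in clone 174 and 3.26 in the control. GALNT13, which starts mucin-type sugar chains, was at 0.208 FPKM in clone 114, 6.64 in clone 174 and 4.87 in the control. FBXL16, an F-box gene, was at 1.77 FPKM in clone 114, 16.3 in clone 174 and 15.8 in the control. ZCCHC12, a transcriptional co-activator gene, was at 29.998 FPKM in clone 114, 116 in clone 174 and 155 in the control, with clone 114 lowest. FLNA, the actin crosslinker filamin A, was at 127 FPKM in clone 114, 272 in clone 174 and 297 in the control, which puts clone 114 below the control by 1.21 on the log2 scale.

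**Figure D2:**
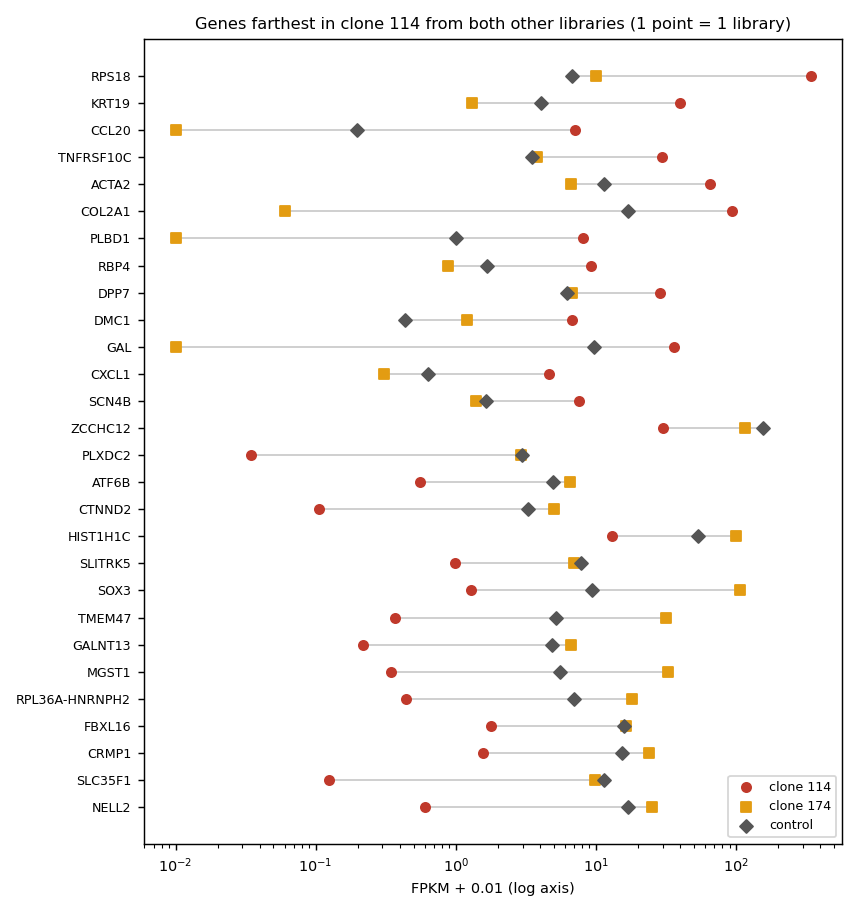
FPKM plus 0.01 on a log axis for genes farthest in clone 114 from both other libraries, with 1 point per library: clone 114 (red circles), clone 174 (orange squares) and control (grey diamonds). The upper 13 genes are highest in clone 114, such as COL2A1 at 93.6 FPKM in clone 114 and 16.8 in the control, and the lower 15 are lowest there, such as NELL2 at 0.594 FPKM in clone 114 and 17.02 in the control; symbols beginning with LOC are left out.

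Basement membrane and matrix glycoproteins had the highest medians of the lists with at least 9 compared genes. List members at least 1.5-fold from the control are counted below, a limit passed upward by 7.24% and downward by 5.96% of all 12511 genes. A gene of low level can enter the compared genes through the one library where it is high, so these counts are descriptions and support nothing by themselves. The basement membrane list had a median of 0.48, against -0.026 in clone 174, and 6 of 21 compared members were at least 1.5-fold higher and 0 lower. Its interval over genes was 0.37 to 0.66. SPARC, a collagen-binding matrix protein, was at 54.8 FPKM in clone 114, 54.2 in clone 174 and 15.5 in the control, so both clones lay above the control. COL4A2, a chain of the collagen IV network, was at 48.3 FPKM in clone 114, 46.96 in clone 174 and 23.4 in the control, again high in both clones. LAMB1, a laminin chain, was at 28.2 FPKM in clone 114, 16.03 in clone 174 and 15.9 in the control. LAMB2, another laminin chain, was at 36.9 FPKM in clone 114, 15.6 in clone 174 and 18.5 in the control. For these chains clone 174 lay with the control and clone 114 above. The perlecan gene HSPG2 was at 2.97 FPKM in clone 114, 1.71 in clone 174 and 1.76 in the control.

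Matrix glycoproteins and proteoglycans had a median of 0.40, with 11 of 26 compared members at least 1.5-fold higher and 1 lower. The interval over genes, -0.15 to 0.78, held 0, and without a filter on low values the median was 0.041 above that of all genes. MFAP2, a microfibril protein, was at 15.7 FPKM in clone 114, 0 in clone 174 and 4.303 in the control. FBLN1, a fibulin of elastic fibres and basement membranes, was at 75.97 FPKM in clone 114, 38.97 in clone 174 and 30.5 in the control. THBS4, a thrombospondin, was at 3.595 FPKM in clone 114, 0.466 in clone 174 and 0.415 in the control. EFEMP2, needed for elastic fibre assembly, was at 21.6 FPKM in clone 114, 5.82 in clone 174 and 8.44 in the control. Each of these 4 genes was highest in clone 114. SPOCK1, a proteoglycan gene, was the member lower by that limit, at 0.284 FPKM in clone 114, 2.74 in clone 174 and 1.87 in the control. Among fibrillar and cartilage collagens, 2 of 6 compared members passed the limit upward. COL2A1, the chain of the main cartilage collagen, was at 93.6 FPKM in clone 114, 0.0504 in clone 174 and 16.8 in the control. COL9A2, which decorates its fibrils, was at 1.79 FPKM in clone 114, 0.06703 in clone 174 and 0.512 in the control. In both genes clone 114 was highest and clone 174 near 0. COL1A1, of the main bone and skin collagen, was at 2.43 FPKM in clone 114, 4.22 in clone 174 and 2.54 in the control.

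Enzymes that act on matrix gave a median of 0.25, with 9 of 26 members higher and 2 lower. The lysyl oxidase-like genes, which crosslink collagen and elastin, were the symbol family with the highest median of 397 families of 5 or more compared genes, at 0.83 over 5 symbols, of which 4 are enzymes and LOXL1-AS1 is a long non-coding RNA, at 1.63 FPKM in clone 114, 3.06 in clone 174 and 1.59 in the control. LOXL1 was at 7.57 FPKM in clone 114, 2.83 in clone 174 and 3.31 in the control. LOXL3 was at 3.696 FPKM in clone 114, 0.773 in clone 174 and 1.64 in the control. LOXL4 was at 4.74 FPKM in clone 114, 1.36 in clone 174 and 0.745 in the control. LOX, the founding enzyme of the family and outside that symbol count, went the other way, at 3.05 FPKM in clone 114, 3.16 in clone 174 and 9.11 in the control, below the control in both clones. MMP2, a gelatinase, was at 6.98 FPKM in clone 114, 3.83 in clone 174 and 1.795 in the control. The plasminogen activator PLAU was at 2.896 FPKM in clone 114, 0.755 in clone 174 and 0.927 in the control. PLAT, the other plasminogen activator, was at 30.95 FPKM in clone 114, 11.3 in clone 174 and 17.8 in the control. PLOD3, a lysyl hydroxylase of collagen, was at 30.5 FPKM in clone 114, 13.5 in clone 174 and 15.4 in the control.

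Integrins, the matrix receptors that talin binds, had a median of 0.36, against -0.18 in clone 174, with 3 of 13 members at least 1.5-fold higher and 0 lower; without a filter on low values the median was 0.20 above that of all genes. ITGA8, the receptor chain for nephronectin in kidney development, was at 5.67 FPKM in clone 114, 0.663 in clone 174 and 1.97 in the control. ITGA4 was at 4.37 FPKM in clone 114, 0.291 in clone 174 and 1.62 in the control. The fibronectin receptor chain ITGA5 was at 15.6 FPKM in clone 114, 9.79 in clone 174 and 9.21 in the control. In all 3, clone 114 was highest, and ITGA4 and ITGA8 were lowest in clone 174. Of 34 focal adhesion adaptors, 5 were higher and 2 lower by 1.5-fold. FLNC, a filamin of muscle, was at 16.1 FPKM in clone 114, 11.1 in clone 174 and 6.18 in the control. PARVB, a parvin, was at 9.42 FPKM in clone 114, 21.3 in clone 174 and 3.702 in the control. TES, a LIM protein, was at 72.9 FPKM in clone 114, 27.5 in clone 174 and 38.5 in the control, and FLNA, given above, was one of the lower members. Among 30 genes of actin bundling and motility, 5 were higher and 3 lower, with MYO10, the myosin of filopodia, at 7.65 FPKM in clone 114, 10.99 in clone 174 and 17.8 in the control. The partners of KANK1 at the cortex and its microtubule-capturing neighbours had a median of 0.045, against 0.096 in clone 174. Of 22 members 1 was higher and 1 lower, shares not far from the 7.24% and 5.96% of all genes. PHLDB2, the LL5-beta scaffold of the complex, was at 6.47 FPKM in clone 114, 4.33 in clone 174 and 3.85 in the control.

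Of the centrosome lists, centriole duplication lay -0.013 and pericentriolar material and appendages 0.080 from the median of all genes. None of 31 compared centriole duplication genes was 1.5-fold higher or lower, and their median was -0.017, against 0.036 in clone 174. Of 43 genes of the pericentriolar material and appendages, 5 were higher and 3 lower, shares not far from the 7.24% and 5.96% of all genes. AKAP9, a scaffold for microtubule nucleation, was at 8.06 FPKM in clone 114, 5.38 in clone 174 and 4.38 in the control. TUBGCP6, part of the gamma-tubulin ring, was at 20.3 FPKM in clone 114, 8.96 in clone 174 and 11.8 in the control. LRRC45, a linker between centrioles, was at 15.9 FPKM in clone 114, 22.2 in clone 174 and 29.2 in the control. HAUS1, an augmin subunit, was at 74.3 FPKM in clone 114, 95.3 in clone 174 and 123 in the control. AKAP9 and TUBGCP6 were highest in clone 114, and LRRC45 and HAUS1 lowest there. Of 53 mitosis and spindle genes 0 were higher and 4 lower, with the survivin gene BIRC5 at 82.01 FPKM in clone 114, 111 in clone 174 and 145 in the control. The primary cilium list median was 0.18 in clone 114, against -0.055 in clone 174, with 2 of 50 past the limit upward and 0 downward.

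The chemokine genes CCL20 and CXCL1 and the cytokine gene IL32 were under 1 FPKM in the control and higher in clone 114. The NF-kB list, of the factors, their inhibitors and the cytokines they induce, had a median of 0.40, with 8 of 19 compared members at least 1.5-fold higher and 1 lower, against -0.0074 in clone 174. CCL20, CXCL1 and IL32 reached the level compared through clone 114 and not through the control, so neither that count nor that median is support for a difference of the list. The interval over genes was -0.008 to 0.99. Relative to all genes the median was 0.032 with the limit set at 5 FPKM, 0.13 without a filter on low values and 0.24 with a pseudocount of 5 FPKM. CCL20, a chemokine that draws lymphocytes, was at 7.11 FPKM in clone 114, 0 in clone 174 and 0.188 in the control. CXCL1, a chemokine for neutrophils, was at 4.62 FPKM in clone 114, 0.297 in clone 174 and 0.626 in the control. IL32, a cytokine gene, was at 2.26 FPKM in clone 114, 0.993 in clone 174 and 0.177 in the control. NFKBIZ, a nuclear partner of NF-kB, was at 3.84 FPKM in clone 114, 0.983 in clone 174 and 1.401 in the control. These 4 members had the largest changes of the list, and their upstream sequences are printed because all 4 carry a match to the kappaB element, the site that NF-kB proteins bind. The 250 bases before each start come from RefSeq on GRCh38.p14, plus strand, and are chr2:227813592-227813841 for CCL20, chr4:73869143-73869392 for CXCL1, chr16:3065153-3065402 for IL32 and chr3:101827740-101827989 for NFKBIZ. Capitals mark the bases of the matches found on either strand; where 2 matches overlap, as for CXCL1 and IL32, both are covered. Positions count back from the start at -1.
CCL20: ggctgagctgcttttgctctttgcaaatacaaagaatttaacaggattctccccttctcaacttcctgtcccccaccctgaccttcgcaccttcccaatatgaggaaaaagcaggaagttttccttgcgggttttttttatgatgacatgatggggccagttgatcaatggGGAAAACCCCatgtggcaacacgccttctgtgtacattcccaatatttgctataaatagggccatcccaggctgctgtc
CXCL1: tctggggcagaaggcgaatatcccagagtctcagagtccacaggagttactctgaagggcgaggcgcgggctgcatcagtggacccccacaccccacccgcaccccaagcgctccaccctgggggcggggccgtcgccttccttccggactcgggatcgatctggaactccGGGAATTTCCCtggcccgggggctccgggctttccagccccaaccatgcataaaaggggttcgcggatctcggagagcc
IL32: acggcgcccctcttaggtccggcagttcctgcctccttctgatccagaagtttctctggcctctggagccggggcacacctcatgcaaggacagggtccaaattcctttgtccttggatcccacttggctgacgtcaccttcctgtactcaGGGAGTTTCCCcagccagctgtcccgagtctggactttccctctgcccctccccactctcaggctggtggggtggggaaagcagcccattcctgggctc
NFKBIZ: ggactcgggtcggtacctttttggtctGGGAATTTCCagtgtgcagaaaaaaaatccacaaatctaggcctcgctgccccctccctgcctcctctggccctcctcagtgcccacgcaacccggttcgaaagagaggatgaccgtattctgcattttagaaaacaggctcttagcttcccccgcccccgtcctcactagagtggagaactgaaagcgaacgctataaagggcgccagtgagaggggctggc
The match began at position -79 for CCL20 and CXCL1, at -99 for IL32 and at -223 for NFKBIZ. Of 14 compared list members with a promoter in the RefSeq table, 9 held the motif, against 12.03% of the promoters of all compared genes and 9.57% of all 27305 promoters. The list was drawn up from known NF-kB genes, and a match is a stretch of letters, not a measured site.

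Interferon-stimulated genes showed no common direction, with 5 of 23 higher and 5 lower. IFI16, a nuclear DNA sensor, was at 5.38 FPKM in clone 114, 5.43 in clone 174 and 1.98 in the control, high in both clones, and IFITM1, an antiviral membrane protein, at 8.87 FPKM in clone 114, 13.005 in clone 174 and 19.3 in the control, low in both. Of 36 p53 targets, 10 were higher by 1.5-fold and 1 lower, with a median of 0.13, and 0.20 in clone 174. SPATA18, a mitochondrial quality gene, was at 6.32 FPKM in clone 114, 1.43 in clone 174 and 1.23 in the control, apart in clone 114, while EDA2R, a receptor of the TNF family, was at 13.1 FPKM in clone 114, 10.6 in clone 174 and 4.895 in the control. MDM2, the p53 ubiquitin ligase, was at 76.3 FPKM in clone 114, 78.1 in clone 174 and 47.6 in the control, and for both the clones lay near each other. HEK293 cells carry the adenovirus E1 region, whose products bind p53 and RB.

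Among signal ligands and receptors, IGFBP7, a secreted binder of insulin-like growth factors, was at 58.5 FPKM in clone 114, 19.7 in clone 174 and 13.1 in the control. IGFBP5, another such binder, was at 10.3 FPKM in clone 114, 22.4 in clone 174 and 30.9 in the control. The clone 114 values were thus above the control for the first and below it for the second. The epidermal growth factor receptor EGFR was at 4.31 FPKM in clone 114, 2.11 in clone 174 and 1.35 in the control. MDK, a heparin-binding growth factor, was at 549 FPKM in clone 114, 225 in clone 174 and 287 in the control. Of 40 TGF-beta and BMP genes 6 were higher and 0 lower, with BMP2 at 7.94 FPKM in clone 114, 7.34 in clone 174 and 2.66 in the control, high in both clones. Of 34 semaphorin and axon guidance genes, 7 were higher and 1 lower. SLIT2, a ligand for Robo receptors, was at 76.3 FPKM in clone 114, 33.6 in clone 174 and 31.8 in the control. The semaphorin receptor NRP1 was at 19.7 FPKM in clone 114, 6.59 in clone 174 and 10.97 in the control. The Wnt receptor FZD10 was at 19.4 FPKM in clone 114, 8.97 in clone 174 and 5.59 in the control. The Hedgehog factor GLI3 was at 10.3 FPKM in clone 114, 3.91 in clone 174 and 4.704 in the control. Among the genes of immediate early response, which growth factors switch on within minutes, 1 of 26 was higher and 4 were lower. EGR1, a zinc finger factor, was at 13.6 FPKM in clone 114, 4.33 in clone 174 and 90.6 in the control. FOS, part of the AP-1 factor, was at 4.25 FPKM in clone 114, 3.39 in clone 174 and 30.1 in the control. Both clones lay below the control. The cyclin gene CCND1 was at 4.12 FPKM in clone 114, 8.01 in clone 174 and 12.6 in the control. MYC was at 7.11 FPKM in clone 114, 13.1 in clone 174 and 17.2 in the control.

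The EGR1 promoter is printed because its 250 bases before the start hold 2 matches to the CArG box, the site of serum response factor, in capitals, at chr5:138465229-138465478 on the plus strand of GRCh38.p14 (RefSeq).
EGR1: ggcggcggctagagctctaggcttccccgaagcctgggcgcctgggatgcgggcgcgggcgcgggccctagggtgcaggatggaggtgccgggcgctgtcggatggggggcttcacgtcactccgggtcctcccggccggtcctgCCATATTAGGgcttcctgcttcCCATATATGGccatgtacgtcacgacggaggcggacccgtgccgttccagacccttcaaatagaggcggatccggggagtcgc
They begin at positions -105 and -83. Such a match was found in 0.918% of the promoters of compared genes and 1.14% of all promoters. FOS held none in its window of 250 bases, and 2 of 16 immediate early promoters, those of EGR1 and SRF, held one. These letters say nothing of binding, which was not measured.

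Several neuronal genes were lower in clone 114: 5 of 16 compared list members were at least 1.5-fold lower and 1 higher. The list median was -0.26, with an interval over genes of -0.89 to 0.31, and 0.092 in clone 174. Relative to all genes it was -0.058 without a filter on low values and -0.16 without the member of largest change. In bulk RNA, fewer cells with a transcript and less of it per cell cannot be told apart. NELL2, a secreted protein of neurons, was at 0.594 FPKM in clone 114, 25.2 in clone 174 and 17.02 in the control. CRMP1, which carries semaphorin signals to the cytoskeleton, was at 1.56 FPKM in clone 114, 23.96 in clone 174 and 15.2 in the control. The neurofilament gene NEFL was at 25.97 FPKM in clone 114, 41.9 in clone 174 and 54.6 in the control. UCHL1, an abundant neuronal ubiquitin hydrolase, was at 98.1 FPKM in clone 114, 198 in clone 174 and 182 in the control. SYP, a protein of synaptic vesicles, was at 2.58 FPKM in clone 114, 10.2 in clone 174 and 4.69 in the control. Clone 114 was the lowest library for all 5. Outside that list, SLITRK5, a synapse-forming membrane protein, was at 0.984 FPKM in clone 114, 6.92 in clone 174 and 7.79 in the control. ISL1, a factor of motor and sensory neurons, was at 0.0473 FPKM in clone 114, 2.43 in clone 174 and 4.21 in the control, close to 0 in clone 114. Other genes outside the list went the other way, among them SCN4B, given above. FRRS1L, a partner of AMPA receptors, was at 7.51 FPKM in clone 114, 0.0589 in clone 174 and 2.51 in the control. MAP2, of dendrites, was the one list member higher, at 4.26 FPKM in clone 114, 2.402 in clone 174 and 2.26 in the control. Neuropeptide genes had no common direction, with 3 of 6 higher and 2 lower by 1.5-fold. CALCB, which encodes beta-CGRP, was at 40.8 FPKM in clone 114, 0.0699 in clone 174 and 427 in the control. GAL, encoding galanin, was at 35.97 FPKM in clone 114, 0 in clone 174 and 9.66 in the control. NPY, encoding neuropeptide Y, was at 4.77 FPKM in clone 114, 1.26 in clone 174 and 1.81 in the control. SOX3, a factor of neural progenitors, was at 1.27 FPKM in clone 114, 107 in clone 174 and 9.36 in the control, while its relative SOX2 was at 8.18 FPKM in clone 114, 7.8001 in clone 174 and 8.26 in the control. Of 17 kidney and urogenital genes 2 were higher and 1 lower. WT1, a factor of kidney progenitors and podocytes, was at 4.81 FPKM in clone 114, 4.99 in clone 174 and 2.605 in the control. CITED1, of nephron progenitors, was at 3.099 FPKM in clone 114, 6.74 in clone 174 and 6.99 in the control.

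Epithelial and mesenchymal genes gave small counts. Of 20 epithelial genes 3 were higher and 0 lower, and the medians were 0.21 in clone 114, 0.19 in clone 174; without a filter on low values the clone 114 median was 0.086 above that of all genes. EPCAM, an epithelial adhesion molecule, was at 22.9995 FPKM in clone 114, 31.2 in clone 174 and 6.35 in the control. MARVELD2, of tricellular junctions, was at 7.74 FPKM in clone 114, 7.33 in clone 174 and 4.57 in the control. Both clones were above the control there, while KRT19, given above, was high in clone 114 and not in clone 174. Of 11 mesenchymal genes 1 was higher, ACTA2, and 4 were lower. CDH2, the gene of N-cadherin, was at 34.6 FPKM in clone 114, 41.2 in clone 174 and 52.5 in the control. SNAI1, the factor Snail, was at 0.826 FPKM in clone 114, 2.45 in clone 174 and 1.98 in the control. S100A4, a calcium-binding protein of motile cells, was at 2.83 FPKM in clone 114, 6.51 in clone 174 and 5.08 in the control. The list median was -0.22 in clone 114 and -0.34 in clone 174; with the limit set at 5 FPKM the clone 114 value was -0.10 relative to all genes.

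Lysosomal genes held 5 higher members and 1 lower of 35, with a median of 0.09, against -0.30 in clone 174. GUSB, the beta-glucuronidase, was at 53.2 FPKM in clone 114, 19.997 in clone 174 and 32.6 in the control. TPP1, a tripeptidyl peptidase, was at 30.7 FPKM in clone 114, 11.9 in clone 174 and 15.3 in the control. ARSA, which breaks down sulfatide, was at 10.996 FPKM in clone 114, 3.94 in clone 174 and 6.59 in the control. Each was highest in clone 114 and lowest in clone 174. The lower member was GLA, alpha-galactosidase A, at 67.9 FPKM in clone 114, 106 in clone 174 and 200.4 in the control, below the control in both clones. NDRG1, a hypoxia-response gene, was at 13.9 FPKM in clone 114, 23.9 in clone 174 and 32.8 in the control. DDIT4, an inhibitor of mTORC1 signalling, was at 21.97 FPKM in clone 114, 43.5 in clone 174 and 36.8 in the control. These were among 3 lower members of 26 hypoxia-response genes, against 1 higher.

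Stress and sterol genes had list medians below that of all genes. Of 40 compared genes of the unfolded protein and amino acid stress responses, 10 were at least 1.5-fold lower and 0 higher, with a median of -0.34, against -0.048 in clone 174. When only genes of a mean of 5 FPKM or more were kept, the clone 114 median was -0.15 relative to all genes. ATF4, the factor at the head of the amino acid response, was at 255 FPKM in clone 114, 339 in clone 174 and 407 in the control. CEBPB, a partner of ATF4, was at 2.52 FPKM in clone 114, 5.04 in clone 174 and 5.32 in the control. XBP1, a factor of the unfolded protein response, was at 31.6 FPKM in clone 114, 40.4 in clone 174 and 51.7 in the control. All 3 were lowest in clone 114. The cystine carrier SLC7A11 was at 2.06 FPKM in clone 114, 5.05 in clone 174 and 5.11 in the control. STC2, a secreted glycoprotein, was at 5.01 FPKM in clone 114, 14.6 in clone 174 and 14.6 in the control. In the cholesterol pathway 8 of 24 were lower and 0 higher, with a median of -0.34 that was the same in clone 174, to 2 decimals. HMGCS1, an early enzyme of the pathway, was at 27.6 FPKM in clone 114, 35.8 in clone 174 and 54.9 in the control. INSIG1, which restrains the sterol sensor, was at 30.97 FPKM in clone 114, 45.1 in clone 174 and 72.99 in the control. The lowest library for both was clone 114, and clone 174 lay below the control too.

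Large protein machines had medians below that of all genes. Respiratory complexes III to V were at -0.33 over 36 genes, complex I at -0.20 over 38, ribosome biogenesis at -0.33 over 51, the proteasome at -0.30 over 44 and the chaperonin TRiC with prefoldin at -0.28 over 14. The clone 174 medians in that order were -0.12, -0.11, -0.013, -0.10 and 0.13. The mitochondrial ribosome symbols MRPL were at a median of -0.35 in clone 114, where 46 of 49 genes were below 0, against -0.048 in clone 174. These genes are abundant, and abundance moved with the change: the fifth of genes with the lowest mean level had a median of 0.12 and the fifth with the highest -0.17. With quantile normalization, which gives all libraries one distribution, complexes III to V lay -0.076 and complex I 0.0027 from the median of all genes, and the proteasome -0.12 and TRiC with prefoldin -0.053, while unfolded protein and amino acid stress lay -0.22 and ribosome biogenesis -0.20 from it. The nucleolar phosphoprotein NPM1 was at 756 FPKM in clone 114, 1116 in clone 174 and 1499 in the control. EIF5A, a translation factor, was at 522 FPKM in clone 114, 1069 in clone 174 and 859 in the control.

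**Figure D3:**
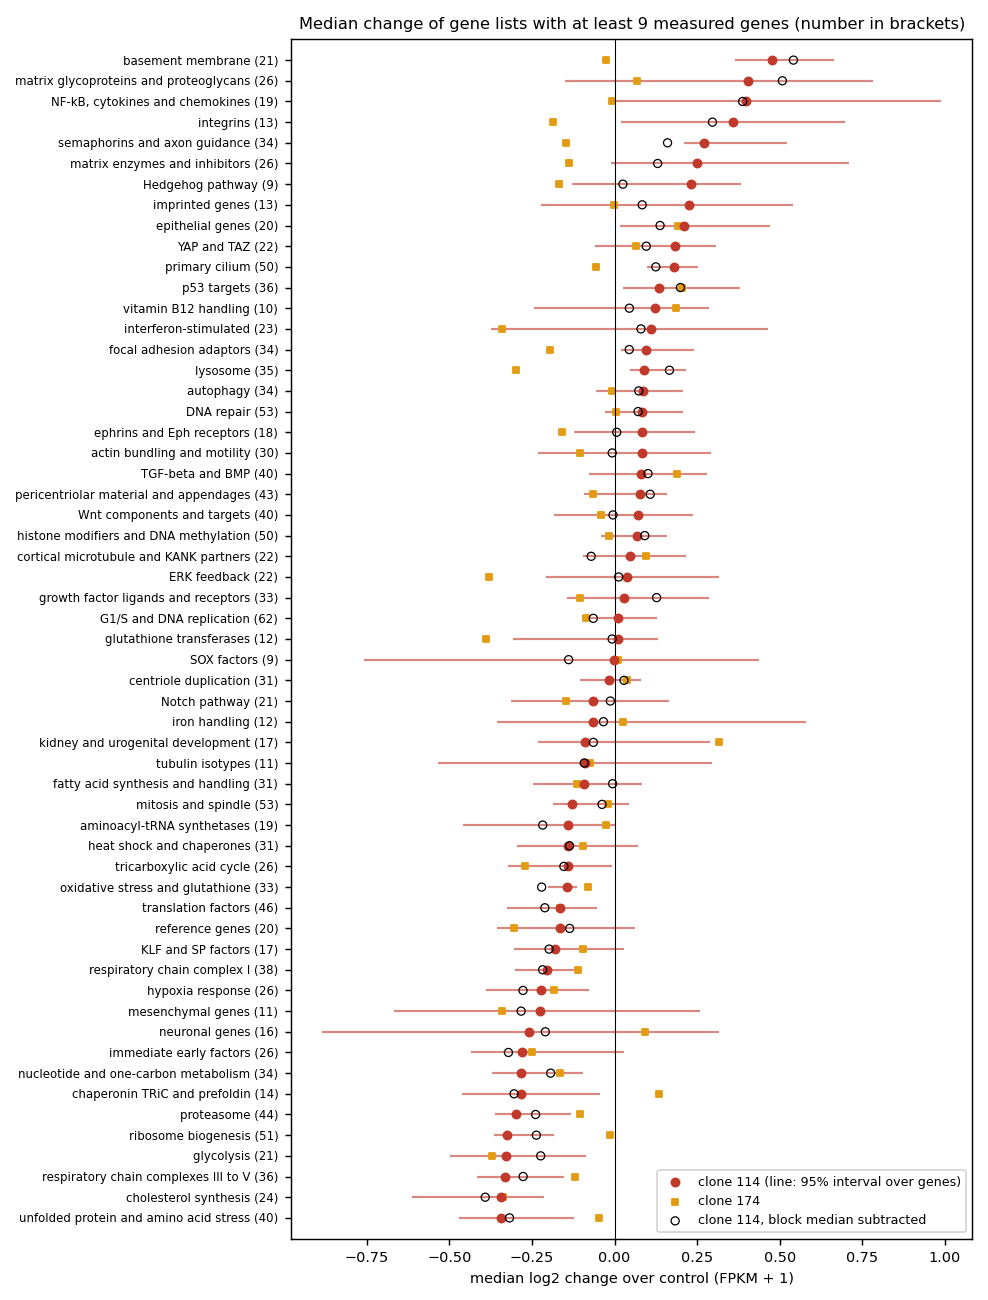
Median log2 change over the control of gene lists with at least 9 compared genes (number in brackets). Red points are clone 114 with a 95% binomial interval over genes, orange squares clone 174, and open circles clone 114 after each gene's chromosome block median was subtracted; basement membrane is at the top (0.48) and unfolded protein and amino acid stress at the bottom (-0.34).

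Histone and small nucleolar RNA host genes were among the lowest symbol families. The HIST family had a median of -0.76 in clone 114, against 0.024 in clone 174. In clone 114, 7 of 12 compared genes were at least 1.5-fold lower and 0 higher. HIST1H1C, a linker histone, was at 12.995 FPKM in clone 114, 99.996 in clone 174 and 53.6 in the control. The H2B gene HIST1H2BK was at 36.6 FPKM in clone 114, 75.5 in clone 174 and 63.2 in the control. Both were lowest in clone 114 and highest in clone 174. Most replication-dependent histone messages lack a poly(A) tail, and the library preparation selected poly(A) RNA, whose part in these values was not tested. The SNHG genes, whose introns hold small nucleolar RNAs, had a median of -0.59, with 9 of 18 lower and 0 higher, and -0.082 in clone 174. SNHG25 was at 109.7 FPKM in clone 114, 345 in clone 174 and 767 in the control. SNHG16 was at 31.2 FPKM in clone 114, 43.7 in clone 174 and 60.3 in the control. Of 36 compared small RNA genes, 16 were listed at 0 in clone 114 or in the control. Small RNA genes stay in the counts of 2-fold genes, with 17 of them at least 2-fold either way. Without them 229 genes were higher and 157 lower. Of the small RNA genes only SNORA43 is named below, as listed at 0 in clone 114. The protein genes of the collagen symbols COL had a median of 0.34 over 19 genes, 16 of them above 0.

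Position along the chromosomes set large groups of genes apart. The 12347 compared genes found in the RefSeq gene table were cut into 483 blocks of 25 neighbours, and 69 blocks stood apart, meaning a median at least 0.3 from that of all placed genes with at least 80% of the block on that side. Of these 38 were higher and 31 lower, and they held 14.2% of the placed genes. Chromosome 7 was higher over nearly its whole length. Its 605 genes had a median of 0.39 above all placed genes (95% binomial interval over genes 0.35 to 0.42), with 532 above and 73 below, while in clone 174 the median was -0.17. In clone 114, 21 of its 24 blocks stood apart, from GNA12 to GHET1, at 0.33 to 0.65. The last 2 blocks, from PDIA4 on, were at -0.097 and 0.0078. Of its genes 26.1% were at least 1.5-fold higher in clone 114 and 0.826% lower, and the chromosome held 4.90% of the placed genes but 9.09% of those at least 2-fold higher. DNA copies were not measured, and their part in the block values was not tested.

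The highest block of chromosome 7, from SKAP2 to SCRN1, held the HOXA cluster, whose factors set position along the body axis. The 13 compared HOXA symbols had a median of 0.70, and -0.045 in clone 174. They include the long non-coding RNAs HOXA10-AS and HOXA11-AS. HOXA9 was at 44.8 FPKM in clone 114, 26.1 in clone 174 and 26.1 in the control. HOXA5 was at 23.1 FPKM in clone 114, 11.3 in clone 174 and 12.97 in the control. HOXA13 was at 12.9 FPKM in clone 114, 4.52 in clone 174 and 7.12 in the control. All of these were highest in clone 114. The block of 25 holds the HOXA genes themselves, and with its median subtracted the family median was 0.053. HOXA7 was the member lower than the control, at 4.65 FPKM in clone 114, 7.75 in clone 174 and 5.86 in the control. LAMB1, PLOD3, TES, FLNC, EGFR, GLI3 and AKAP9, given above, also lie on chromosome 7. IRF5, an interferon regulatory factor, was at 13.8 FPKM in clone 114, 2.43 in clone 174 and 5.03 in the control. FOXP2, a forkhead factor, was at 7.07 FPKM in clone 114, 1.62 in clone 174 and 2.58 in the control. MET, the hepatocyte growth factor receptor, was at 33.3 FPKM in clone 114, 8.49 in clone 174 and 19.6 in the control. In these 3 genes clone 114 was highest and clone 174 lowest. CDK6, a cell-cycle kinase, was at 9.81 FPKM in clone 114, 10.5 in clone 174 and 5.32 in the control, high in both clones. ACTB, the cytoplasmic actin often used as a reference gene, was at 2357 FPKM in clone 114, 1261 in clone 174 and 1832 in the control.

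Chromosome 5 lay lower throughout. Its 558 genes had a median of -0.40 (interval -0.42 to -0.37), with 495 below and 63 above, and 17 of its 22 blocks stood apart. The first 4 blocks, CCDC127 to ITGA1, were the lowest, at -0.55 to -0.82, and the later ones that stood apart lay between -0.30 and -0.53. Clone 174 was also low over the first 5 blocks, at -0.34 to -0.54, and between -0.30 and 0.060 over the rest. The 5 blocks that did not stand apart in clone 114 were negative as well, at -0.13 to -0.37. Chromosome 5 held 4.52% of the placed genes and 22.0% of those at least 2-fold lower. Near its start, NDUFS6, a complex I subunit, was at 96.6 FPKM in clone 114, 163 in clone 174 and 248 in the control. CCT5, a chaperonin subunit, was at 140.2 FPKM in clone 114, 239 in clone 174 and 319 in the control. SDHA, of the citric acid cycle, was at 72.4 FPKM in clone 114, 84.4 in clone 174 and 141 in the control. TARS, which charges threonine tRNA, was at 82.9 FPKM in clone 114, 115 in clone 174 and 164 in the control. GHR, the growth hormone receptor, was at 0.131 FPKM in clone 114, 3.09 in clone 174 and 4.6998 in the control. Members of several lists above thus lie here, among them MYO10, CTNND2, ISL1, EGR1, STC2, SPOCK1, HMGCS1, LOX and NPM1. THBS4 and MARVELD2 lie on chromosome 5 too and were higher in clone 114, as given above. In all, 13 genes of this chromosome were at least 1.5-fold higher in clone 114.

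**Figure D4:**
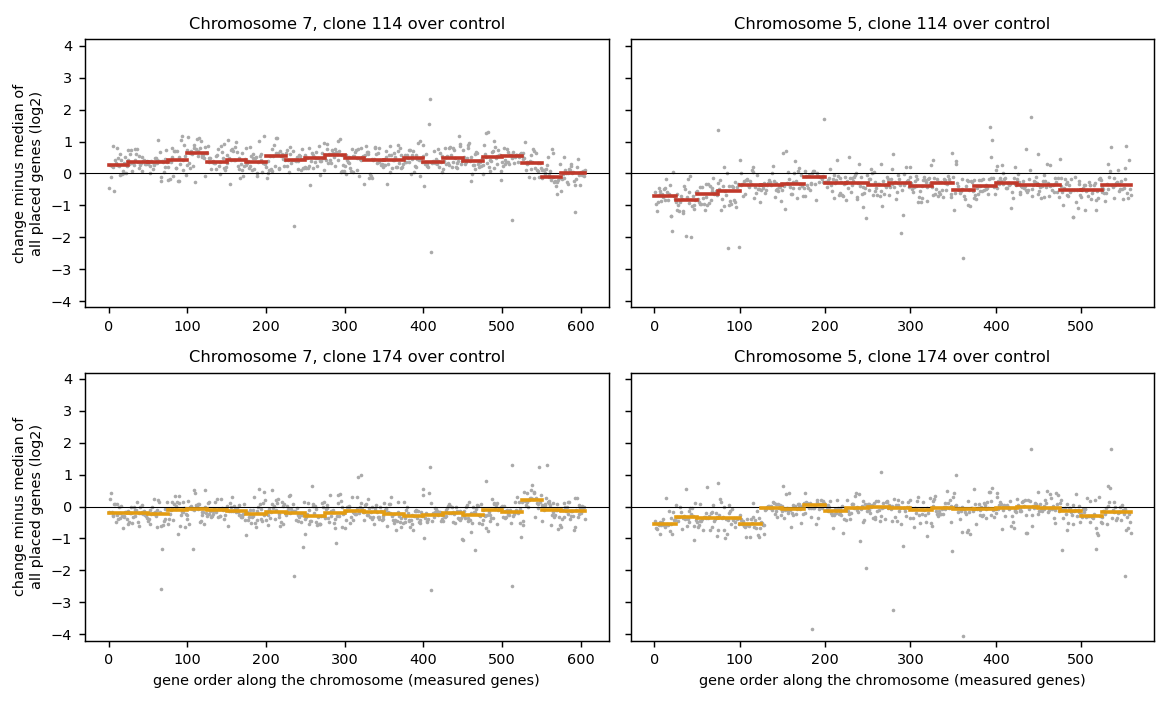
Change of each compared gene minus the median of all placed genes (log2) by gene order along chromosome 7 (left) and chromosome 5 (right), in clone 114 (top) and clone 174 (bottom), with bars for block medians. In clone 114 the chromosome 7 bars lie at 0.33 to 0.65 over 21 blocks and near the zero line at the last 2, and all chromosome 5 bars are below it.

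Chromosomes 3, 16 and 17 were divided at inner points. On chromosome 3 the 16 blocks up to COX17 lay between -0.086 and 0.20, and the 12 from GSK3B on lay between 0.23 and 0.45, of which 8 stood apart. In clone 174 all 12 of these later blocks were below 0. ADCY5, an adenylyl cyclase, was at 3.07 FPKM in clone 114, 0.898 in clone 174 and 0.549 in the control. PCOLCE2, which aids collagen processing, was at 13.1 FPKM in clone 114, 4.84 in clone 174 and 5.14 in the control. On chromosome 17, the last 8 blocks, from HEATR6 to METRNL, lay between -0.30 and -0.53, of which 6 stood apart, and in clone 174 the same blocks were between -0.071 and -0.25. PYCR1, of proline synthesis, was at 8.26 FPKM in clone 114, 20.4 in clone 174 and 26.9 in the control. Chromosome 18 had a median of -0.29 over 192 genes, with 2 of 7 blocks apart. On chromosome 16, 6 higher blocks between TGFB1I1 and HSDL1 were at 0.34 to 0.45 and were higher in clone 174 too, at 0.15 to 0.48. The seventh block that stood apart there, WASIR2 to STUB1, was lower, at -0.34 in clone 114 and -0.33 in clone 174.

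Single or few blocks stood apart on other chromosomes, with 1 on chromosome 1, 3 on 15, 2 on 19, 1 on 22 and 1 on X. On chromosome 19, 2 neighbouring blocks from ARMC6 to POP4 were at 0.40 and 0.60, and the next one, from PLEKHF1, was at -0.16. They hold a cluster of KRAB zinc finger genes, a family that represses transposable elements, with ZNF429 at 2.92 FPKM in clone 114, 1.71 in clone 174 and 0.453 in the control. ZNF681 was at 5.02 FPKM in clone 114, 2.25 in clone 174 and 1.35 in the control. On the X chromosome the block from MOSPD2 to CXorf23 was at 0.42 in clone 114 and -0.40 in clone 174, with 24 of 25 genes above the median of all in clone 114. Its members include CTPS2, of cytidine synthesis, at 26.5 FPKM in clone 114, 8.81 in clone 174 and 11.97 in the control. ASB9, a ubiquitin ligase adaptor, was at 5.14 FPKM in clone 114, 1.04 in clone 174 and 0.163 in the control. On chromosome 22 the block from C22orf39 to LZTR1 was at -0.41, with 22 of 25 genes below, among them the heart and thymus factor TBX1 at 6.72 FPKM in clone 114, 9.29 in clone 174 and 15.3 in the control.

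**Figure D5:**
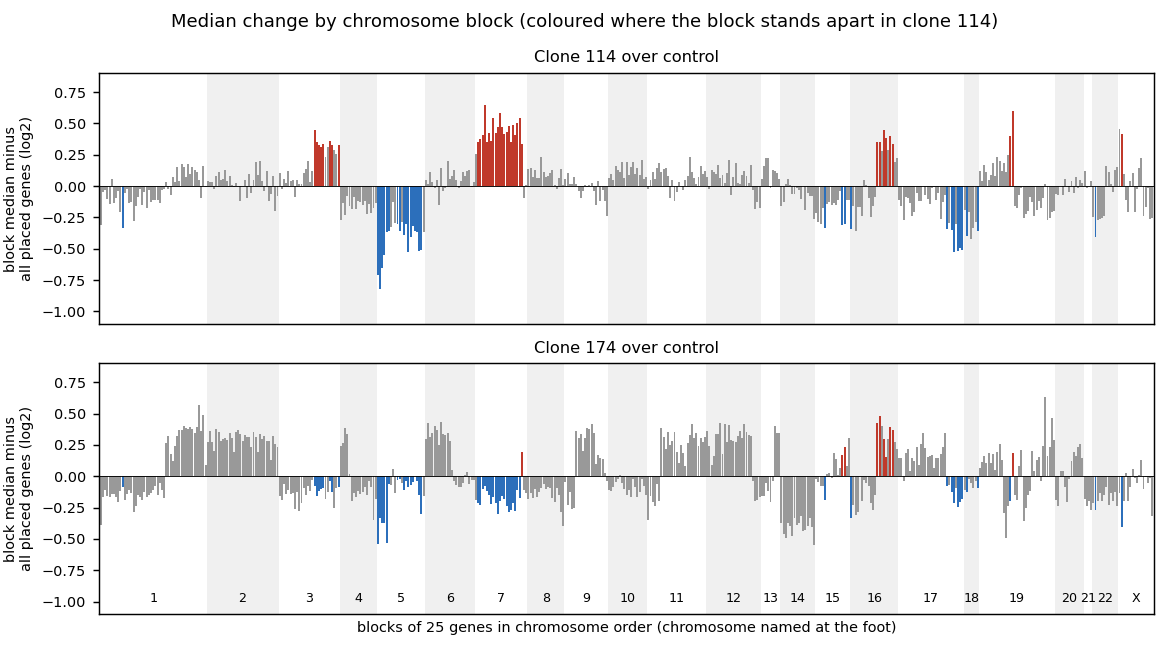
Median change of each block of 25 genes minus that of all placed genes (log2), in chromosome order, for clone 114 (top) and clone 174 (bottom), with coloured bars (red above 0, blue below) for the 69 blocks that stood apart in clone 114. Chromosome 7 is high and chromosome 5 low in clone 114, at medians of 0.39 and -0.40, and chromosome 7 is at -0.17 in clone 174.

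After the block median was subtracted from each gene, a step added once the values were known, basement membrane stood at 0.54 and matrix glycoproteins at 0.51. The NF-kB list stood at 0.39 and integrins at 0.30, while semaphorins and axon guidance genes were at 0.16, against 0.27 before. Matrix enzymes and inhibitors fell to 0.13 from 0.25, the Hedgehog pathway to 0.025 from 0.23 and focal adhesion adaptors to 0.045 from 0.096. Lysosomal genes went the other way, to 0.17 from 0.09. Cholesterol synthesis was at -0.39, unfolded protein and amino acid stress at -0.32 and ribosome biogenesis at -0.24.

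Some of the values come from genes that share sequence with near-identical copies or overlapping symbols, and are uncertain. RPS18, a ribosomal protein gene, was at 341 FPKM in clone 114, 9.94 in clone 174 and 6.72 in the control. RPL21, another, was at 15.3 FPKM in clone 114, 14.9 in clone 174 and 0.01396 in the control; both are strongly expressed genes with many processed copies. POLR2J2 was at 0.279 FPKM in clone 114, 0.0926 in clone 174 and 6.03 in the control. NSFP1, a pseudogene, was at 0.742 FPKM in clone 114, 0.588 in clone 174 and 8.73 in the control. RPL36A-HNRNPH2, a readthrough symbol, was at 0.431 FPKM in clone 114, 17.98 in clone 174 and 7.01 in the control. The histone gene H3F3A was listed at 24.1 FPKM in clone 114, 0 in clone 174 and 0 in the control. How the reads of these genes were assigned is not given in the sources used here.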

How the data were processed

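Poly(A) RNA of 3 HEK293 libraries was sequenced from stranded libraries, per the labels' protocols. Reads were processed with cutadapt 2.10, HISAT2 2.2.1 and Cuffdiff 2.2.1 on the build hg19, per the submitters' processing notes. The authors deposited 1 table of FPKM values per library; 28 rows with a date for a symbol were left out, and the authors' log2 ratio tables were not used here. FPKM are not counts and no count model was applied. Counting error is thus known only through the depth estimated from transcripts of at least 1500 bases, taking fragments of 200 bases. With 1 library a group no test was made; binomial intervals over genes describe the spread among genes, which are not replicates. Computation used Python 3.11.15, pandas 2.3.3 and numpy 2.4.6. The counts of 2-fold genes and a chromosome median, not the block rule, were tried on simulated data. Gene order came from a RefSeq table on GRCh38.p14, for chromosomes and neighbours only, and 164 compared genes were not placed. The motifs were searched on both strands of 250 bases.

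The genes and the 70 lists were chosen with earlier results of these data known. Names were drawn from the KANK family, the 20 genes with the highest and the 20 with the lowest change, the 15 farthest from both other libraries each way, up to 4 members of a list and up to 6 of a block by size of change; not all of these are described. The other genes named in the text, among them TES, HSPG2, COL1A1, VIM, MYC, MET, ACTB, SOX2 and several HOXA genes, include ones chosen after their values were seen. The alternatives were other pseudocounts, filters, scalings and block sizes, and leaving out small RNA genes or genes listed at 0.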

Additional observations from a re-analysis of the deposited data

Results flagged for a closer look

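In 21 of the 12511 compared genes the clones lay at least 2-fold from the control in opposite directions; with 1 library each, this difference between the clones was not tested. Values below are log2 changes against the same control library. Of these genes, 15 were higher in clone 114 and lower in clone 174. KRT19 was at 3.00 in clone 114, against -1.15 in clone 174. COL2A1 had 2.41 in clone 114 and -4.09 in clone 174, and GAL 1.79 in clone 114 and -3.41 in clone 174. MAP7D2, a microtubule-associated protein, had 1.70 in clone 114 and -2.58 in clone 174. PLIN2 had 1.67 in clone 114 and -1.92 in clone 174, MFAP2 1.65 in clone 114 and -2.41 in clone 174, and H1F0 1.60 in clone 114 and -1.49 in clone 174. WFDC2, a secreted protein of epithelia, had 1.51 in clone 114 and -2.45 in clone 174. GSTO2, a glutathione transferase, had 1.38 in clone 114 and -1.06 in clone 174. FRRS1L, a partner of AMPA receptors, had 1.28 in clone 114 and -1.73 in clone 174. SLC25A43, a mitochondrial carrier, had 1.24 in clone 114 and -1.05 in clone 174. FAM26F had 1.22 in clone 114 and -1.13 in clone 174, and PAPLN, a matrix protein, 1.18 in clone 114 and -1.52 in clone 174. GEMIN8, of the SMN complex, had 1.13 in clone 114 and -1.05 in clone 174. ITGA4 had 1.04 in clone 114 and -1.02 in clone 174. GAL, MFAP2, FAM26F and PAPLN were listed at 0 in clone 174, so their clone 174 values can rest on a failed estimate.

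The other 6 genes were lower in clone 114 and higher in clone 174. SOX3 had -2.19 in clone 114 and 3.39 in clone 174. TMEM47, a membrane protein of cell junctions, had -2.19 in clone 114 and 2.40 in clone 174, and MGST1, a microsomal glutathione transferase, had -2.29 in clone 114 and 2.36 in clone 174. BIN1, which bends membranes, had -1.14 in clone 114 and 1.03 in clone 174. RPL36A-HNRNPH2, the readthrough symbol named above as uncertain, had -2.48 in clone 114 and 1.24 in clone 174. SNORA43, a small nucleolar RNA listed at 0 in clone 114, had -3.96 in clone 114 and 1.65 in clone 174.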

How the results depend on the processing

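No paired analysis was possible because each group held 1 library. Counts of 2-fold genes depended on the pseudocount, the filter and scaling to one sum. The 235 higher genes became 386 with FPKM scaled to the same sum, 108 at a mean of at least 5 FPKM, 428 with a pseudocount of 0.1 FPKM and 52 with 5 FPKM. The 168 lower genes became 115 with FPKM scaled to the same sum and 89 at a mean of at least 5 FPKM. They became 234 with a pseudocount of 0.1 FPKM and 47 with 5 FPKM. Genes higher than both other libraries, 120, became 209, 62, 239 and 29 under the same 4 settings in that order. Those lower than both, 67, became 29 at a mean of at least 5 FPKM, 112 with a pseudocount of 0.1 FPKM and 15 with 5 FPKM. Without a filter on low values the median was 0 on chromosomes 3, 17 and 18, -0.11 on chromosome 5 and 0.11 on chromosome 7, since genes at or near 0 were then included. With a pseudocount of 5 FPKM these medians were 0.11 on chromosome 3, -0.30 on chromosome 5, 0.28 on chromosome 7, -0.13 on chromosome 17 and -0.21 on chromosome 18. With a pseudocount of 0.1 FPKM they were -0.44 on chromosome 5 and 0.43 on chromosome 7. Blocks standing apart held 1.10% of placed genes without a filter and 5.73% with a pseudocount of 5 FPKM. Of the 53 named gene values, 35 moved by more than counting error with a pseudocount of 5 FPKM and 23 with 0.1 FPKM. With 5 FPKM the clone 114 changes of TMEM47 (-0.93) and MGST1 (-0.98) were under 2-fold. So were those of PLXDC2 (-0.66), CTNND2 (-0.70), ATF6B (-0.84), ISL1 (-0.87), GHR (-0.92), GALNT13 (-0.92) and SLITRK3 (-0.93). Among higher genes the same held for LOC100996579 (0.73), CXCL1 (0.77), TCN2 (0.81), SCN4B (0.93) and ASB9 (0.97). Among lists whose interval over genes did not hold 0, quantile normalization reversed 3 medians. These were oxidative stress and glutathione (0.033), respiratory chain complex I (0.0027) and translation factors (0.048), and the cause was not tested. Other medians changed sign too, in lists whose interval held 0, among them tubulin isotypes (0.16), iron handling (0.15) and mitosis and spindle (0.021). Of the other list values, all relative to the median of all genes, 666 stayed within the interval of the reported median and 12 lay outside it.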
